A study of Mus musculus with 12 samples.

Results

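The 34 genes described here make cholesterol and fatty acids or control that synthesis, and they were taken by symbol from the 32285 genes counted in single cells of the mouse hippocampus. They comprise 18 enzymes of the sterol pathway, from Acat2 to Dhcr7, the isoprenoid branch enzyme Ggps1, 6 regulators and sterol carriers (Insig1, Insig2, Srebf1, Srebf2, Scap and Stard4) and 9 enzymes of fatty acid synthesis, desaturation and elongation. All mice were 9-week-old females of the strain C57/BL6J. Injections held cisplatin, a chemotherapy agent that forms platinum adducts on DNA, or, in controls, phosphate-buffered saline (PBS). Within each drug arm some mice were also given light flicker and sound pulses at 40 Hz for 1 h a day over 21 days, starting with the first injection. Hippocampi were taken on day 22 and dissociated. The 4 groups, with 3 libraries each, are PBS nonstim and Cisplatin nonstim, which had no stimulation, and PBS stim and Cisplatin stim, which had it. Replicate 1 of each group came from 1 animal and replicates 2 and 3 from 2 pooled animals each, and the deposited cell table puts every replicate 1 in a first batch and the others in a second. The cisplatin dose is not given in the labels.

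Cells build cholesterol from acetyl-CoA through mevalonate, isoprenoid diphosphates, squalene and lanosterol, and fatty acids from the same acetyl-CoA pool through malonyl-CoA. When sterols in the endoplasmic reticulum run low, the carrier Scap escorts the transcription factors encoded by Srebf1 and Srebf2 to the Golgi for cleavage, and they then switch on most of these enzymes; Insig proteins hold Scap back when sterols are plentiful. The blood-brain barrier keeps circulating cholesterol out, so brain cells make their own: oligodendrocytes for myelin, and astrocytes for export to neurons.

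Each of the 12 libraries held between 611 and 2772 cells, with 3964338 to 17656020 transcripts counted by unique molecular identifier (UMI). The authors' cell types were used as deposited; all 6 astrocyte, 6 oligodendrocyte, 6 microglial, 5 choroid plexus, 5 endothelial, 4 oligodendrocyte precursor (OPC) and 4 pericyte markers were highest in the type they mark, as were 4 of 5 neuronal and 4 of 5 immune markers. The median cell had 10.66% to 17.62% mitochondrially encoded UMIs in first-batch libraries, against 3.19% to 5.12% in second-batch libraries. Gm42418, AY036118 and Lars2, genes known to draw ribosomal RNA reads, took 1.87% to 3.65% of all UMIs in the 4 second-batch PBS libraries, against 0.417% to 0.782% in the 4 second-batch cisplatin libraries and, in the first batch, 0.4786% and 0.5425% after PBS and 0.3399% and 0.3933% after cisplatin. The share was lower after cisplatin in both batches, so it and the drug cannot be told apart. Of 19778 distinct cell barcodes, 56 occurred in more than 1 library.

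The windows of 250 bases before to 50 bases after the annotated start were read from RefSeq (GRCm38.p6) for 27 of the 34 genes. They are shown for Hmgcs1 and Idi1, which fell in both astrocytes and oligodendrocytes, and for Insig1, which rose in oligodendrocytes. Idi1 and Insig1 were chosen after their values were seen. Capitals mark the sterol regulatory element TCACNCCAC and the nuclear factor Y box CCAAT, which reads as ATTGG where it lies on the minus strand. Both motifs were searched on both strands, and they do not overlap in these windows.
Hmgcs1, chr13:119690101-119690400, plus strand: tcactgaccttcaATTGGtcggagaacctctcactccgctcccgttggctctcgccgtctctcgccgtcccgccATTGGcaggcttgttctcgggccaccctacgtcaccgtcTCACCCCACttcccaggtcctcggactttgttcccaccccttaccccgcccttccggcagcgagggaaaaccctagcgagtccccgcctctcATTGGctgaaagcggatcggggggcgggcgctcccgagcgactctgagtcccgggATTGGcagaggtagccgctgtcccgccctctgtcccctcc
Idi1, chr13:8885356-8885655, plus strand: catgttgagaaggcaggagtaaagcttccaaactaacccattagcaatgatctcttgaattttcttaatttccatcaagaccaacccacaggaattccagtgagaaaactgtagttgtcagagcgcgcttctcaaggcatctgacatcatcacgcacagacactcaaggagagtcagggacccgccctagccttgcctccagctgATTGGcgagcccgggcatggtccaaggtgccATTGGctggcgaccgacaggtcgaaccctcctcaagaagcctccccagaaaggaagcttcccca
Insig1, chr5:28071162-28071461, plus strand: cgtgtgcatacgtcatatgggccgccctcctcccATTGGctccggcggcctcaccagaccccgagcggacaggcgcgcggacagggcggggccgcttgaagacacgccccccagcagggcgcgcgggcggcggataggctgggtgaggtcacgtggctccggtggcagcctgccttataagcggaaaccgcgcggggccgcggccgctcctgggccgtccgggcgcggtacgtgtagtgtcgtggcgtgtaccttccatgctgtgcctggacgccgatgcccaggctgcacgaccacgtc

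The sterol regulatory element occurred in the window of 1 of the 27 genes, Hmgcs1, at position −137 from the start, which is 1 of their 35 windows, and in 1.24% of 32851 windows in the table. The nuclear factor Y box occurred in 22 of the 27, among them all 3 windows shown. Counted by window, it was in 23 of 35 windows of members and in 37.41% of all windows. A match describes the letters and is not a measured binding site.

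Astrocytes held the highest level of 23 of the 34 genes, among them 15 of the 18 sterol enzymes. Levels are UMIs of a gene scaled to 1000000 UMIs of that cell type in a library (CPM), as mean ± SD over 12 libraries. Only the 8 types with at least 10 cells in every library are ranked, which leaves out pericytes, ependymal cells, progenitors and fibroblasts. The levels describe the types without a test, since the types were themselves made from expression. Msmo1, which removes methyl groups from lanosterol products, averaged 635 ± 190.2 CPM in astrocytes and 168 ± 43.5 in oligodendrocytes, the next type, and was higher in astrocytes in 11 of 12 libraries. Hmgcs1, which makes the precursor of mevalonate, averaged 308 ± 99.7 CPM in astrocytes and 232 ± 64.1 in oligodendrocytes, with astrocytes higher in 11 of 12. Idi1, which isomerises isopentenyl diphosphate, averaged 176 ± 69.1 CPM in astrocytes and 87.6 ± 43.1 in choroid plexus, with astrocytes higher in 11 of 12. Summed over the 18 sterol enzymes, astrocytes had 2264 ± 617 CPM, oligodendrocytes 1202 ± 203, OPCs 844 ± 146, choroid plexus 779 ± 219, endothelium 391 ± 58.4, neurons 390.0 ± 52.8, immune cells 275 ± 49.7 and microglia 210 ± 13.3. Endothelium and neurons did not differ beyond their spread, nor did OPCs and choroid plexus.

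The sterol enzymes that peaked elsewhere were Ebp in oligodendrocytes (73.0 ± 11.7 CPM), Fdps in choroid plexus (179.8 ± 80.5) and Acat2 in OPCs (44.1 ± 19.4). Fdps and Acat2 each exceeded the next type in 7 of 12 libraries, which leaves their first place within the spread. Of the regulators, Srebf1 was highest in astrocytes, at 251 ± 67.4 CPM against 83.7 ± 15.7 in oligodendrocytes, in 12 of 12 libraries. Insig1 differed less, at 189.9 ± 65.2 CPM in astrocytes and 157 ± 56.6 in oligodendrocytes, with astrocytes higher in 8 of 12. Stard4, a cytosolic sterol carrier, was the only member highest in endothelium among the 8 ranked types. It averaged 72.6 ± 20.02 CPM there and 17.4 ± 6.16 in astrocytes, with endothelium higher in 12 of 12 libraries. Pericytes, which are not ranked, held Stard4 at 35.9 to 79.4 CPM. In PBS nonstim replicate 3 they were above endothelium (79.4 against 73.3 CPM).

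Of the 9 fatty acid enzymes, 4 were highest in astrocytes, 3 in oligodendrocytes, 1 in OPCs (Elovl6) and 1 in immune cells. The last was Acly, which makes acetyl-CoA from citrate, at 69.7 ± 42.9 CPM in immune cells and 68.1 ± 9.27 in oligodendrocytes, within their spread. Scd2, the main stearoyl-CoA desaturase of the brain, was highest in oligodendrocytes, at 2707 ± 325 CPM, above the 1646 ± 320.0 of astrocytes in 12 of 12 libraries. Acaca, which makes malonyl-CoA, was also highest there, at 113 ± 23.8 CPM against 63.7 ± 8.45 in astrocytes, in 12 of 12. Fads2, a desaturase of polyunsaturated fatty acids, averaged 470.3 ± 81.3 CPM in astrocytes and 119 ± 30.4 in OPCs, again in 12 of 12. In oligodendrocytes Fads2 reached at most 8.53 CPM in any library. Microglia had the lowest mean level of Msmo1, Idi1, Sqle, Fads2 and Scd2.

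**Figure D1:**
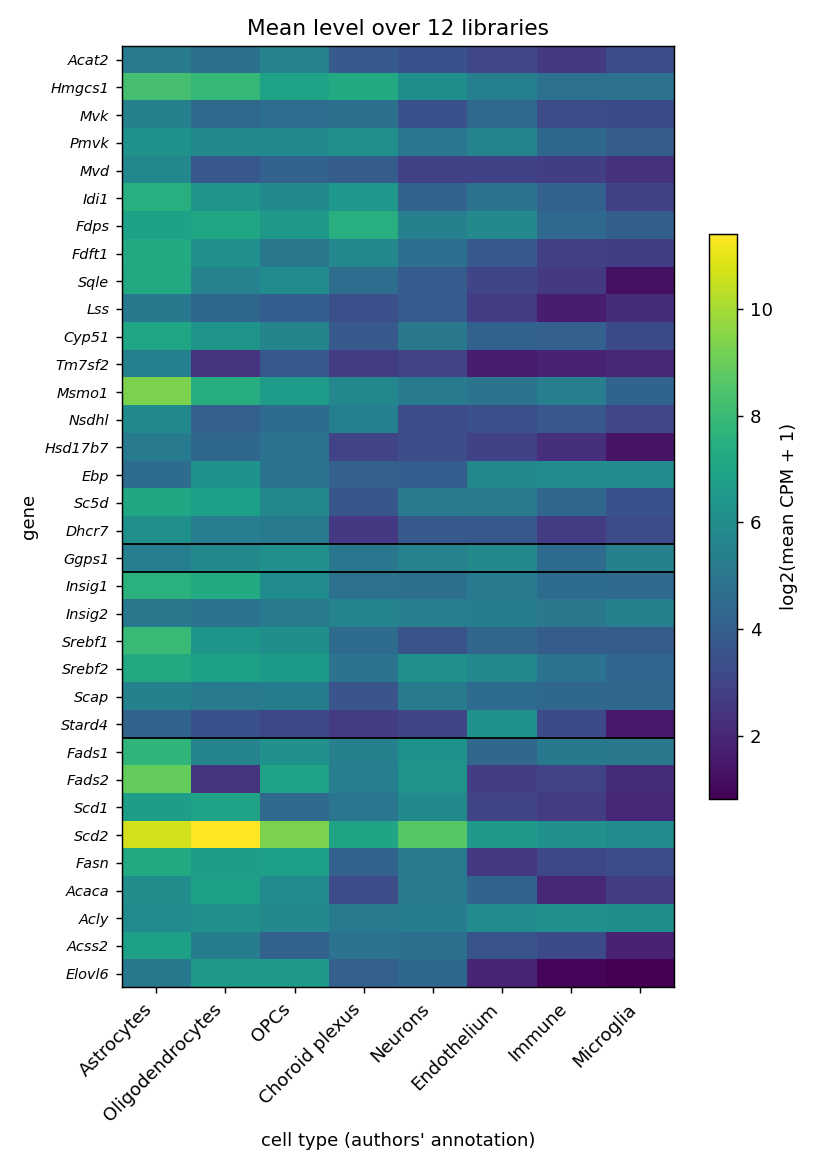
Mean level of each gene (rows, in the order sterol enzymes, isoprenoid branch, regulators and carriers, fatty acid enzymes) in 8 cell types (columns), as log2 of mean CPM plus 1 over 12 libraries; levels compare cell types within a row only. Most sterol enzymes are brightest in astrocytes, Scd2 and Acaca in oligodendrocytes and Stard4 in endothelium.

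Cisplatin was compared with PBS by edgeR's quasi-likelihood test on UMIs summed per library and cell type, with the batch as a term, and a gene was called at a Benjamini-Hochberg adjusted p under 0.05 over all genes of the type. The 34 genes gave 216 tested pairs of gene and type, since genes with low counts were left out of a type; all 34 passed in astrocytes and oligodendrocytes. Averaged over stimulation, 38 pairs were called, 19 higher and 19 lower, or 17.6% of pairs against 9.72% of all 69488 tested. Without stimulation 6 pairs were called (2.78% against 1.64% of all), and under stimulation 19 (8.8% against 3.89% of all). These comparisons share libraries, so they are not independent of each other. The spread is between libraries of 1 animal or of 2 pooled animals.

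In astrocytes, 7 of 18 sterol enzymes fell after cisplatin. Here and below, log2 fold changes are averaged over stimulation unless stated, and all are edgeR's fitted values. Their SE was derived as the size of the fold change divided by the square root of the test's F statistic. The 7 were Hmgcs1, Idi1, Cyp51, Fdft1, Dhcr7, Msmo1 and Pmvk, and none rose; in the second batch alone the first 3 remained called. All 18 had a log2 fold change below 0, with a median of −0.40 against −0.0032 over all genes tested. In all, 9 of the 34 genes were called, against 5.02% of the 10163 genes tested in astrocytes (2.42% lower); the other two were Srebf1, which rose, and Acss2, which fell.

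Hmgcs1 lies at chr13:119690379-119708260 (GRCm38, plus strand). It read 397, 323 and 396 CPM in PBS nonstim replicates 1, 2 and 3, 368, 428 and 448 in PBS stim, 162, 275 and 230.2 in Cisplatin nonstim, and 179, 206 and 285 in Cisplatin stim. All 6 cisplatin libraries lay below all 6 PBS libraries. The log2 fold change was −0.83 ± 0.11 (SE; edgeR adjusted p = 1.77e-05), with −0.78 ± 0.15 without stimulation (adjusted p = 0.0148) and −0.89 ± 0.16 under stimulation (adjusted p = 0.00129). The background was 0.364% of genes called without stimulation, where Hmgcs1 and Idi1 were the called members, and 2.6% under stimulation, where Hmgcs1, Idi1, Cyp51, Fdft1 and Srebf1 were. The averaged Hmgcs1 value kept its direction and its call in all 22 other settings tried, between −0.96 and −0.68.

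Idi1 (chr13:8885501-8892451, plus strand) read 183, 227 and 218 CPM in PBS nonstim, 141, 277 and 291 in PBS stim, 68.8, 172 and 153 in Cisplatin nonstim, and 77.2, 137 and 169 in Cisplatin stim. The groups overlapped across batches, because PBS stim replicate 1 lay below several cisplatin libraries of the second batch, while within each batch every cisplatin library lay below every PBS library. Its log2 fold change was −0.82 ± 0.11 (edgeR adjusted p = 2.48e-05). Idi1 overlaps an antisense gene and shares 18.8% of its 31-base words with other genes, chiefly Gm13502, so part of its count could belong elsewhere.

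Cyp51 (chr5:4081145-4104746, minus strand), the lanosterol demethylase, read 135, 152 and 184 CPM in PBS nonstim, 114, 174 and 195 in PBS stim, 67.4, 127 and 132 in Cisplatin nonstim, and 45.4, 103 and 137 in Cisplatin stim. The cisplatin replicate 1 libraries were the lowest of all, and within the second batch all 4 cisplatin libraries lay below all 4 PBS libraries. It fell by 0.69 ± 0.12 in log2 units (edgeR adjusted p = 0.000403). Fdft1, squalene synthase, was at −0.44 ± 0.11 (adjusted p = 0.0178), and its call was lost without PBS nonstim or Cisplatin nonstim replicate 1. Acss2, which makes acetyl-CoA from acetate, was at −0.52 ± 0.11 (adjusted p = 0.0048). The calls of Dhcr7, Msmo1 and Pmvk held when 1 library was left out in only 5, 3 and 3 of 12 cases.

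Sqle, the squalene epoxidase, was not called in astrocytes. It read 134 to 187 CPM in the PBS libraries, 159 to 178 in the 4 cisplatin libraries of the second batch and 70.9 and 97.3 in those of the first. Its log2 fold change was −0.27 ± 0.12 (edgeR adjusted p = 0.187).

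Of the 6 regulators and carriers, only Srebf1 was called in astrocytes. Srebf1 (chr11:60199089-60222581, minus strand) read 256, 158 and 169 CPM in PBS nonstim, 237, 168 and 208 in PBS stim, 296, 278 and 287 in Cisplatin nonstim, and 302, 387 and 273 in Cisplatin stim. Every cisplatin library was above every PBS library, and Srebf1 rose by 0.62 ± 0.11 in log2 units (edgeR adjusted p = 0.000666); with the ribosomal RNA-like share as a covariate it was at 0.38 ± 0.16 and not called (adjusted p = 0.398). Srebf1 and Hmgcs1 were the 2 of 34 genes whose 6 cisplatin and 6 PBS astrocyte libraries did not overlap, against 1.48% of all genes tested. Srebf2, which encodes the factor most tied to sterol genes, ranged from 130.0 to 167 CPM in PBS and from 124 to 187 in cisplatin libraries, with a log2 fold change of −0.01 ± 0.11 (adjusted p = 0.969). Insig1 read 267, 168 and 206 CPM in PBS nonstim, 179, 171 and 239 in PBS stim, 62.5, 218 and 230.2 in Cisplatin nonstim, and 70.7, 252 and 216 in Cisplatin stim. Both cisplatin replicate 1 libraries lay below all others, and the other 4 lay within the range of the PBS libraries. Its log2 fold change was −0.37 ± 0.20 (adjusted p = 0.307).

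The fatty acid enzymes of astrocytes, apart from Acss2, were not called. Scd2 ranged from 1396 to 2255 CPM in PBS and from 1191 to 1704 in cisplatin libraries, at −0.24 ± 0.12 (edgeR adjusted p = 0.238). Scd1 was at −0.29 ± 0.13 (adjusted p = 0.201), Fads2 at 0.03 ± 0.11 (adjusted p = 0.931) and Fasn, fatty acid synthase, at 0.10 ± 0.10 (adjusted p = 0.629). The ranges of the drug arms overlapped for each of these 4.

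Beside these astrocyte results, the sum of the 6 astrocyte markers was 21239 to 28233 CPM in PBS libraries and 22530 to 25445 CPM in cisplatin libraries, although single markers moved: Aqp4 fell by 0.57 on the log2 scale, and Aldoc was at 0.52 and Gjb6 at 0.47 (edgeR adjusted p = 0.00144, 0.00875 and 0.00801). The sum of the 5 choroid plexus markers in astrocytes was 8.63 to 1029 CPM in PBS and 109 to 1555 in cisplatin libraries, and Ttr was called higher. The 6 oligodendrocyte markers summed to 349 to 1221 CPM in PBS libraries of astrocytes and 357 to 1517 in cisplatin libraries, with Mobp and Mbp called higher. Of the 5 choroid plexus markers, only 1, Ttr, had enough counts in astrocytes to be tested. The part of these in the results was not tested.

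**Figure D2:**
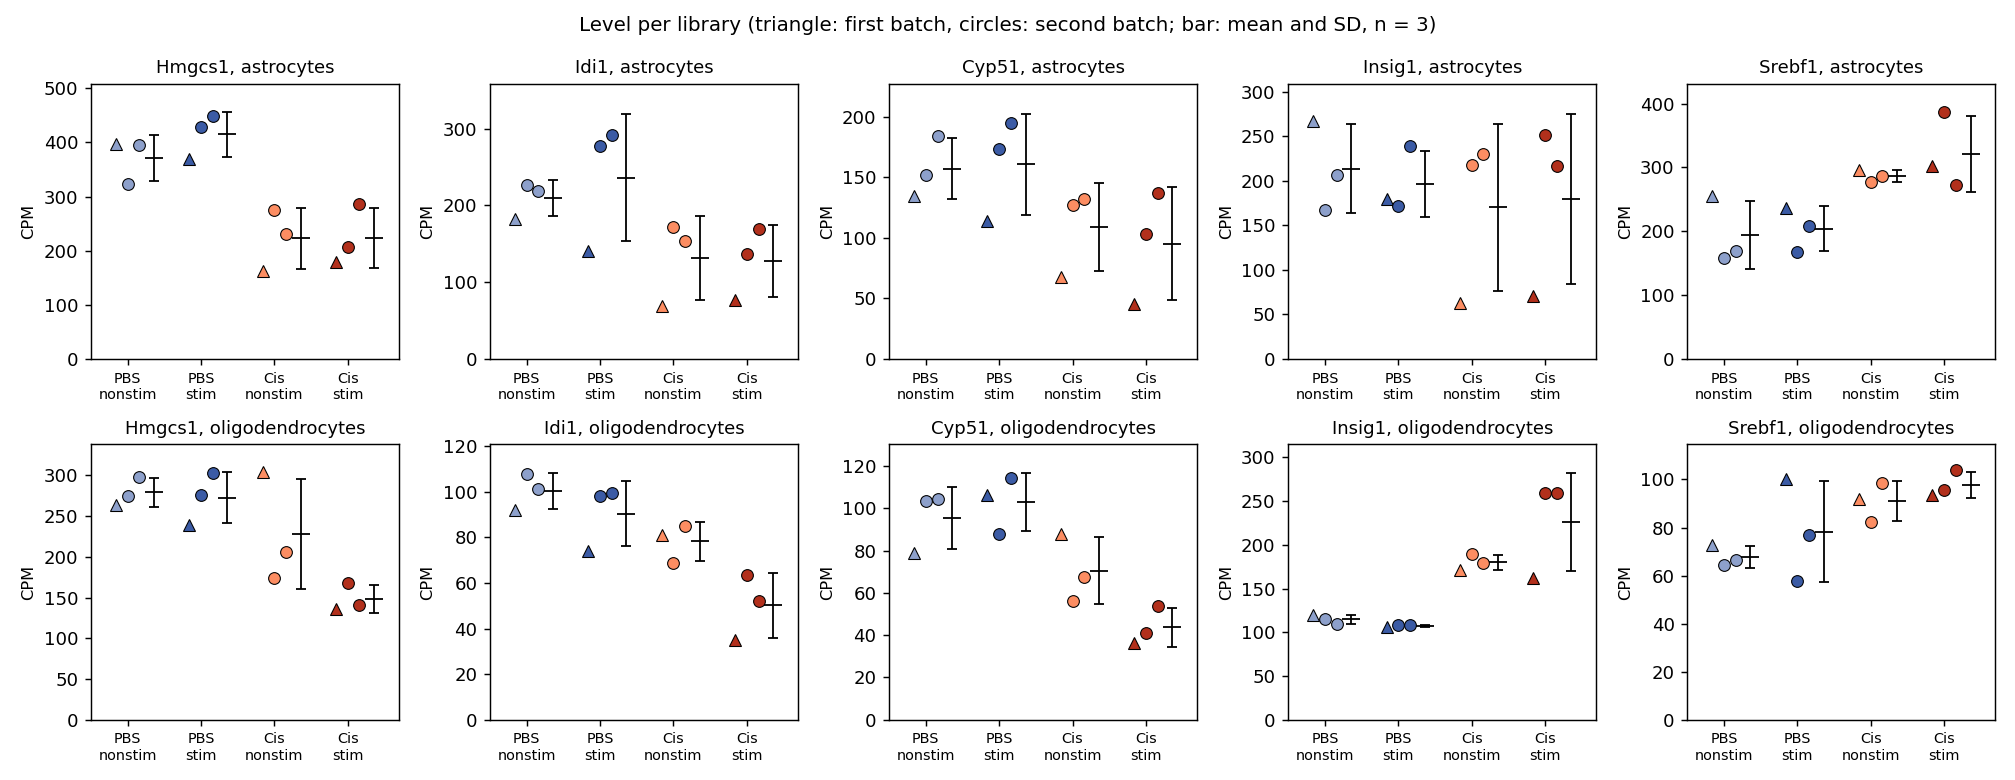
CPM of 5 genes in each library of astrocytes (top) and oligodendrocytes (bottom), by group; triangles are first-batch libraries, circles second-batch ones, and bars the mean and SD of 3 libraries. Astrocyte Hmgcs1 sits between 323 and 448 CPM after PBS and between 162 and 285 after cisplatin, and oligodendrocyte Insig1 between 106 and 120 after PBS and between 162 and 259 after cisplatin.

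In astrocytes the effect of cisplatin differed between the batches for 3 members. In a fit with a term for the drug by batch, added after the low cisplatin replicate 1 libraries were seen, the log2 fold change of Insig1 was −1.69 in first-batch libraries and 0.20 in second-batch ones (difference −1.89 ± 0.23, edgeR adjusted p = 1.27e-05), against 0.256% of all genes called for such a difference. The sterol enzymes Mvd (−1.45 and 0.18, adjusted p = 0.0234) and Hsd17b7 (−1.73 and −0.13, adjusted p = 0.0283) differed likewise. Hmgcs1 was at −1.12 and −0.69 in the same order, Idi1 at −1.10 and −0.69, and Cyp51 at −1.11 and −0.52, and none of these 3 differences was called (adjusted p = 0.454, 0.516 and 0.326). In the second batch alone, Hmgcs1, Idi1, Cyp51, Acss2 and Srebf1 remained called in astrocytes, whereas Fdft1 (−0.23 ± 0.11, adjusted p = 0.183), Dhcr7 (−0.24), Msmo1 (−0.28) and Pmvk (−0.34) did not. The batches also differ in the number of animals per library and in the mitochondrial share, and these cannot be told apart.

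**Figure D3:**
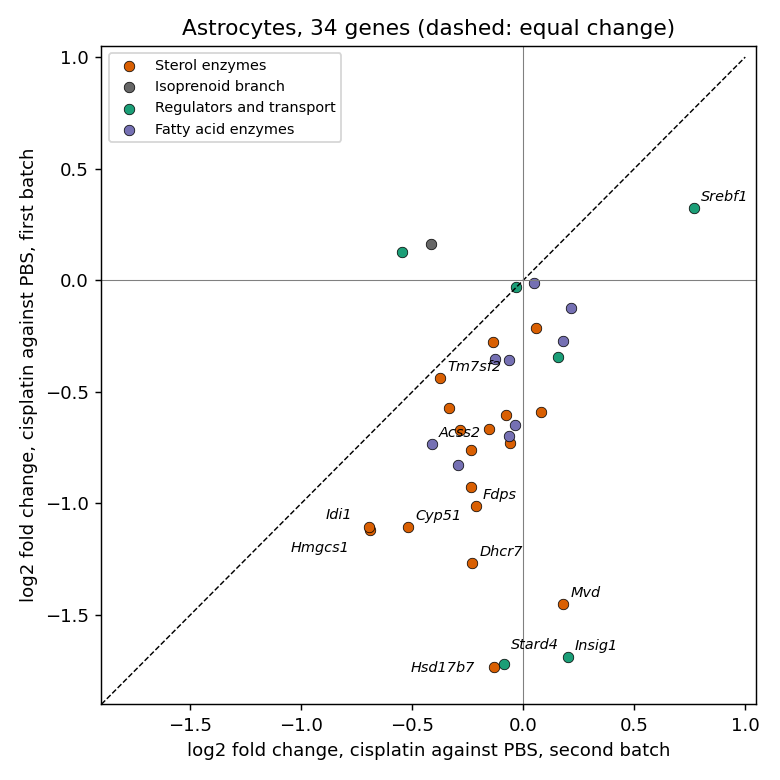
Log2 fold change of cisplatin against PBS in astrocytes in the first batch (vertical axis) and the second (horizontal axis) for the 34 genes, coloured by role. Points below the dashed line changed more negatively in the first batch; Insig1 stands at −1.69 against 0.20, and Hmgcs1 at −1.12 against −0.69.

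In oligodendrocytes, 6 of 18 sterol enzymes fell after cisplatin and Insig1 and Srebf1 rose. Averaged over stimulation, 10 of the 34 genes were called, against 23.3% of the 10094 genes tested, so the number of calls itself is near the background. The 6 sterol enzymes were Hmgcs1, Mvk, Idi1, Cyp51, Ebp and Dhcr7; none rose, 15 were below 0, and the median was −0.29. Among the fatty acid enzymes Elovl6 fell and Acaca rose.

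Insig1 (chr5:28071363-28078662, plus strand), whose protein holds the Scap complex in the endoplasmic reticulum, read 120, 115 and 109.8 CPM in PBS nonstim, 106, 108 and 108 in PBS stim, 171, 189 and 179 in Cisplatin nonstim, and 162, 259 and 259 in Cisplatin stim. All 6 cisplatin libraries were above all 6 PBS libraries. It rose by 0.90 ± 0.09 in log2 units (edgeR adjusted p = 1.21e-06), by 0.70 ± 0.13 without stimulation (adjusted p = 0.0031) and by 1.10 ± 0.14 under stimulation (adjusted p = 1.79e-05). The averaged call held in all 22 other settings, between 0.74 and 1.01.

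Cyp51 read 78.7, 103 and 104 CPM in PBS nonstim, 106, 88.0 and 115 in PBS stim, 87.8, 56.3 and 67.5 in Cisplatin nonstim, and 36.1, 40.8 and 54.0 in Cisplatin stim. The Cisplatin stim libraries were the lowest 3, and Cisplatin nonstim replicate 1 lay among the PBS libraries. The log2 fold change was −0.80 ± 0.13 averaged (edgeR adjusted p = 0.000123).

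Hmgcs1 read 264, 275 and 298 CPM in PBS nonstim, 239, 276 and 302 in PBS stim, 304, 174 and 206 in Cisplatin nonstim, and 136, 168 and 141 in Cisplatin stim. Cisplatin nonstim replicate 1 was the highest library of all, and the other 5 cisplatin libraries were below every PBS library. It fell by 0.57 ± 0.12 in log2 units (edgeR adjusted p = 0.00136). Idi1 read 91.9, 108 and 101 CPM in PBS nonstim, 73.8, 97.9 and 99.2 in PBS stim, 81.0, 68.7 and 85.1 in Cisplatin nonstim, and 35.1, 63.3 and 52.1 in Cisplatin stim. Here PBS stim replicate 1 overlapped the cisplatin libraries, and the log2 fold change was −0.58 ± 0.11 (adjusted p = 0.000445). Dhcr7, which performs the last reduction to cholesterol, fell by 0.58 ± 0.12 (adjusted p = 0.0011), and its 6 cisplatin libraries (24.1 to 38.1 CPM) lay below its 6 PBS libraries (38.6 to 60.5). Insig1, Dhcr7 and Ebp were the 3 of 34 members so separated, against 5.37% of all genes.

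Elovl6 (chr3:129532355-129638495, plus strand), which elongates palmitate, read 77.9, 146 and 127 CPM in PBS nonstim, 86.9, 133 and 139 in PBS stim, 61.4, 87.7 and 79.8 in Cisplatin nonstim, and 24.6, 65.7 and 73.3 in Cisplatin stim. Within each batch all cisplatin libraries lay below all PBS libraries, and the log2 fold change was −0.84 ± 0.11 (edgeR adjusted p = 1.58e-05). Acaca read 113, 89.4 and 100.1 CPM in PBS nonstim, 88.9, 97.2 and 97.6 in PBS stim, 127, 105 and 100.4 in Cisplatin nonstim, and 156, 156 and 131 in Cisplatin stim. Only the Cisplatin stim libraries stood above all others, and the averaged log2 fold change was 0.41 ± 0.08 (adjusted p = 0.00108). Acaca shares 33.4% of its 31-base words with other genes, chiefly Gm5182.

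Several abundant members were not called in oligodendrocytes. Scd2 ranged from 2475 to 3256 CPM in PBS and from 2132 to 3089 in cisplatin libraries, at −0.08 ± 0.08 (edgeR adjusted p = 0.475). Fasn was at −0.04 ± 0.10 (adjusted p = 0.828), Sqle at −0.03 ± 0.12 (adjusted p = 0.878), Scd1 at −0.19 ± 0.11 (adjusted p = 0.211) and Srebf2 at −0.14 ± 0.08 (adjusted p = 0.224). The drug arms overlapped for each of these genes. Srebf1 read 72.9, 64.3 and 66.3 CPM in PBS nonstim, 100.02, 57.8 and 77.0 in PBS stim, 92.0, 82.4 and 98.6 in Cisplatin nonstim, and 93.4, 95.8 and 104 in Cisplatin stim. Apart from PBS stim replicate 1, every PBS library lay below every cisplatin library, and Srebf1 rose by 0.43 ± 0.10 (adjusted p = 0.00277).

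Without stimulation, 3 members were called in oligodendrocytes, Insig1 and Srebf1 higher and Elovl6 lower (0.46 ± 0.13 for Srebf1 and −0.55 ± 0.14 for Elovl6, edgeR adjusted p = 0.0377 and 0.0288), against 6.25% of all genes, and no sterol enzyme was, with 9 above and 9 below 0 and a median of −0.01. Under stimulation 10 were called, against 14.5% of all genes, with the sterol enzymes at a median of −0.36 and 7 of 18 lower. With the ribosomal RNA-like share as a covariate, the averaged calls of Hmgcs1 (−0.34 ± 0.16, adjusted p = 0.25), Srebf1, Idi1, Ebp and Mvk were lost. The sum of the 6 oligodendrocyte markers in these cells was 49346 to 57634 CPM in PBS libraries and 40977 to 48016 CPM in cisplatin libraries. It was thus lower in every cisplatin library than in any PBS library. Mobp went against this sum and was called higher (0.66, edgeR adjusted p = 6.69e-06). The part of this in the results was not tested.

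In choroid plexus cells, 7 of the 15 sterol enzymes tested rose after cisplatin, averaged over stimulation. They were Nsdhl, Fdft1, Mvd, Fdps, Idi1, Msmo1 and Pmvk, and none fell, with a median of 0.65 against a median below 0 for the 9 fatty acid enzymes (−0.61), which were all below 0. In the first batch Scd2 instead read 51.8 and 9.96 CPM after PBS and 135 and 250 after cisplatin, while Acss2 fell there too. Between batches the effect differed, as first minus second, by 4.13 for Scd2, 2.83 for Fads1, 2.69 for Srebf1 and 2.30 for Fads2. It differed by −1.53 for Fdps and −1.87 for Mvk, among members with a count in every library. By the same edgeR test 2024 of 7952 genes differed. In all, 10 of the 30 tested members were called, against 14.4% of 7952 genes (5.96% higher). Insig1 was also higher, and Scap and Fads1 were lower. Both falls were in the second batch. In the first batch Fads1 read 19.4 and 19.9 CPM after PBS and 35.9 and 51.0 after cisplatin. Scap read 0.0 and 0.0 there after PBS and 8.70 and 17.0 after cisplatin.

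Nsdhl (chrX:72918557-72958514, plus strand), a sterol dehydrogenase that works after Msmo1, read 13.0, 13.2 and 36.6 CPM in PBS nonstim, 19.9, 33.3 and 22.6 in PBS stim, 21.7, 72.8 and 62.2 in Cisplatin nonstim, and 53.9, 81.2 and 63.7 in Cisplatin stim. Of the cisplatin libraries only Cisplatin nonstim replicate 1 lay among the PBS libraries. It rose by 1.54 ± 0.25 in log2 units (edgeR adjusted p = 0.00562). Fdft1 (chr14:63145150-63179578, minus strand) read 19.4, 39.6 and 46.9 CPM in PBS nonstim, 29.9, 49.6 and 42.7 in PBS stim, 34.8, 63.5 and 72.9 in Cisplatin nonstim, and 53.9, 83.4 and 92.5 in Cisplatin stim. Again only Cisplatin nonstim replicate 1 overlapped, and Fdft1 rose by 0.95 ± 0.15 (adjusted p = 0.00562).

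Fdps (chr3:89093588-89101959, minus strand), which makes farnesyl diphosphate, read 162, 90.8 and 118 CPM in PBS nonstim, 199, 131 and 115 in PBS stim, 92.4, 230.0 and 314 in Cisplatin nonstim, and 164, 332 and 208 in Cisplatin stim. The rise was in the second batch, where all 4 cisplatin libraries exceeded all 4 PBS libraries, and not in the first. The averaged log2 fold change was 1.03 ± 0.24 (edgeR adjusted p = 0.018). Fdps shares 27.9% of its 31-base words with other genes, chiefly Gm43738. Idi1 was at 0.92 ± 0.24 (adjusted p = 0.0254), Mvd at 1.34 ± 0.31 (adjusted p = 0.0169) and Insig1 at 0.88 ± 0.24 (adjusted p = 0.0287). In the first batch Idi1 read 38.9 and 119.5 CPM after PBS and 44.6 and 45.4 after cisplatin. Mvd read 0.0 and 19.9 there against 10.9 and 5.67, and Pmvk 51.8 and 99.6 against 76.1 and 42.5. For Nsdhl, Fdft1 and Msmo1 both first-batch cisplatin libraries exceeded both PBS libraries. Hmgcs1, which fell in astrocytes, was at 0.03 ± 0.15 in choroid plexus (adjusted p = 0.908), with 142 to 191 CPM in PBS and 130 to 183 in cisplatin libraries.

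The choroid plexus libraries of the first batch were small, with 18 to 209 cells against 127 to 1030 in the second. In the second batch alone all 10 calls held, with Nsdhl at 1.59 ± 0.20 and Fdps at 1.40 ± 0.14. With 1 library left out, the call of Fdft1 held in 11 of 12 cases (not without PBS stim replicate 3), that of Nsdhl in 10 (not without that library or Cisplatin nonstim replicate 2), those of Fdps and Mvd in 6 and those of the other 6 genes in 4 or 5. Without stimulation, where 11 of 30 members had an unadjusted p under 0.05, edgeR called no member and 0.0% of the genes tested. With the ribosomal RNA-like share as a covariate all 10 averaged calls were lost and Fads1 changed sign, to 0.0622 ± 0.454. The 5 choroid plexus markers summed to 40374 to 161170 CPM in PBS and 112010 to 236980 CPM in cisplatin libraries, and Aldoc, Mbp and Mobp, markers of astrocytes and oligodendrocytes, were called higher in choroid plexus cells. The part of this in the results was not tested.

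**Figure D4:**
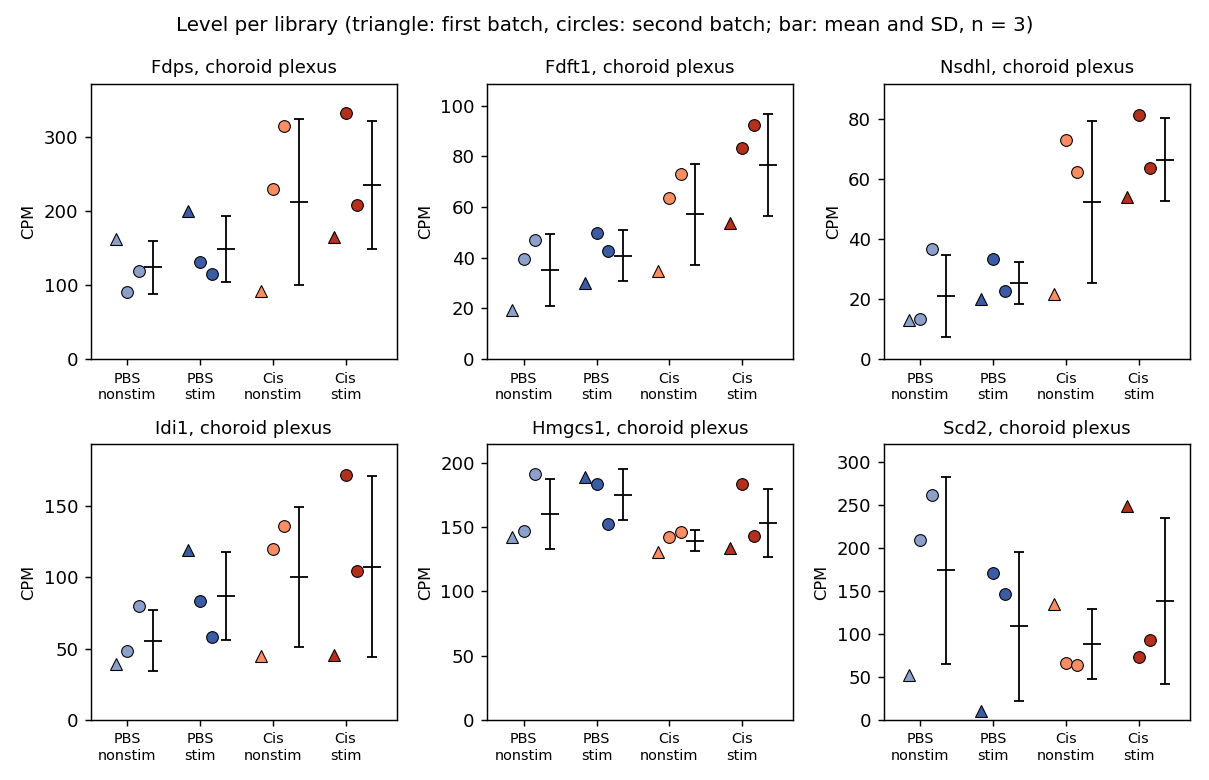
CPM of 6 genes in each choroid plexus library, by group; triangles are first-batch libraries, circles second-batch ones, and bars the mean and SD of 3 libraries. In the second batch Nsdhl lies between 62.2 and 81.2 CPM after cisplatin and between 13.2 and 36.6 after PBS, while Hmgcs1 overlaps.

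Fewer members were called in the other types. In endothelium 2 of 22 fell, against 5.66% of 8145 genes (2.53% lower): Hmgcs1 by 0.67 ± 0.16 in log2 units (edgeR adjusted p = 0.0121) and Insig1 by 0.69 ± 0.20 (adjusted p = 0.0442). Hmgcs1 read 34.3 to 66.3 CPM in PBS and 26.7 to 37.9 in cisplatin libraries, so that the arms overlapped. Its call was lost without PBS stim replicate 3, and that of Insig1 held in 4 of 12 cases with 1 library left out. In the first batch Insig1 read 46.6 and 40.4 CPM after PBS and 45.8 and 36.6 after cisplatin. In the second it read 37.2 to 55.5 CPM after PBS and 20.4 to 23.3 after cisplatin. Ttr, a choroid plexus marker, was called higher in endothelium, and Meg3 and C1qa, markers of neurons and microglia, lower (2.16, −1.70 and −1.37). The 5 choroid plexus markers summed there to at most 392 CPM in PBS libraries and to 79.2 to 2456 in cisplatin libraries, and the part of these in the results was not tested. Stard4, highest in this type, was at −0.39 ± 0.13 (adjusted p = 0.0865). Without stimulation it averaged 66.8 CPM after PBS and 65.1 after cisplatin, and under stimulation 101.4 and 57.3.

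In microglia 3 of 26 rose, against 14.8% of 9903 genes, which is no excess. Insig1 was between 8.99 and 22.9 CPM in PBS and between 16.5 and 33.5 in cisplatin libraries, and its log2 fold change was 0.84 ± 0.18 (edgeR adjusted p = 0.00381). Acat2, which joins acetyl-CoA units, rose by 0.85 ± 0.22 (adjusted p = 0.0121), and its 6 cisplatin libraries (10.1 to 12.4 CPM) lay above its 6 PBS libraries (1.27 to 7.86), as 3.29% of all microglial genes were separated. Acat2 shares 43.8% of its 31-base words with other genes, chiefly Acat3. Dhcr7 rose by 0.66 ± 0.21 (adjusted p = 0.0357), a call that held in 4 of 12 cases with 1 library left out. Mobp, Mbp and Aldoc were called higher in microglia too. Without stimulation, 3 of the 5 oligodendrocyte markers tested in microglia were above 0 and 2 below. Of the 4 astrocyte markers tested, 2 were above and 2 below. Ttr and the pericyte marker Vtn were also called higher in that comparison (3.72 and 2.76). The part of these markers in the results was not tested. Under stimulation, Scd2 rose by 0.69 ± 0.14 in OPCs (edgeR adjusted p = 0.00923) and by 0.69 ± 0.17 in microglia (adjusted p = 0.0176), against 0.716% and 5.24% of genes called in those types. In both types its PBS stim libraries lay below its PBS nonstim libraries. Microglial Scd2 averaged 66.8 CPM in PBS nonstim, 45.8 in PBS stim, 55.3 in Cisplatin nonstim and 77.5 in Cisplatin stim. In OPCs it read 585 to 682, 466 to 544, 525 to 720 and 783 to 788 CPM in the same order.

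In neurons 4 of 20 tested members rose, all desaturases, against 8.38% of 6561 genes: Scd2 by 1.16 ± 0.28, Fads2 by 1.27 ± 0.31, Scd1 by 1.31 ± 0.37 and Fads1 by 1.02 ± 0.30 in log2 units (edgeR adjusted p = 0.0107, 0.0129, 0.0274 and 0.0324). Scd2 read 228 to 379 CPM in PBS and 270.2 to 755 in cisplatin libraries. The 2 of 6 cisplatin libraries inside the PBS range were those of the first batch. In that batch the drug arms overlapped for all 4 genes. Scd2 read 267 and 379 CPM there after PBS and 294 and 270.2 after cisplatin, and Fads2 57.1 and 77.1 against 74.8 and 61.3. Scd1 read 59.4 and 63.7 against 32.4 and 65.7, and Fads1 54.85 and 63.7 against 64.9 and 61.3. The call of Scd2 was lost without PBS stim replicate 2 or 3, and those of Scd1 and Fads1 held in 6 of 12 cases with 1 library left out. The 6 astrocyte markers summed in neurons to 1235 to 1856 CPM in PBS and 1927 to 7485 in cisplatin libraries, and the 6 oligodendrocyte markers to 642 to 4604 and 1470 to 5053. Slc1a3, Aldoc, Slc1a2, Mobp and Mbp were called higher there. The part of this in the neuronal results was not tested. With the ribosomal RNA-like share as a covariate, no averaged call of a member remained in endothelium, microglia or neurons. OPCs, pericytes and immune cells had no call by edgeR in the averaged comparison, against 2.26%, 1.47% and 0.0418% of genes called. At the looser threshold of an unadjusted p under 0.05 there were 6 of 28, 2 of 20 and 0 of 2 tested members. The share of all genes at an unadjusted p is not given here, so such counts, here and elsewhere, have no background.

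**Figure D5:**
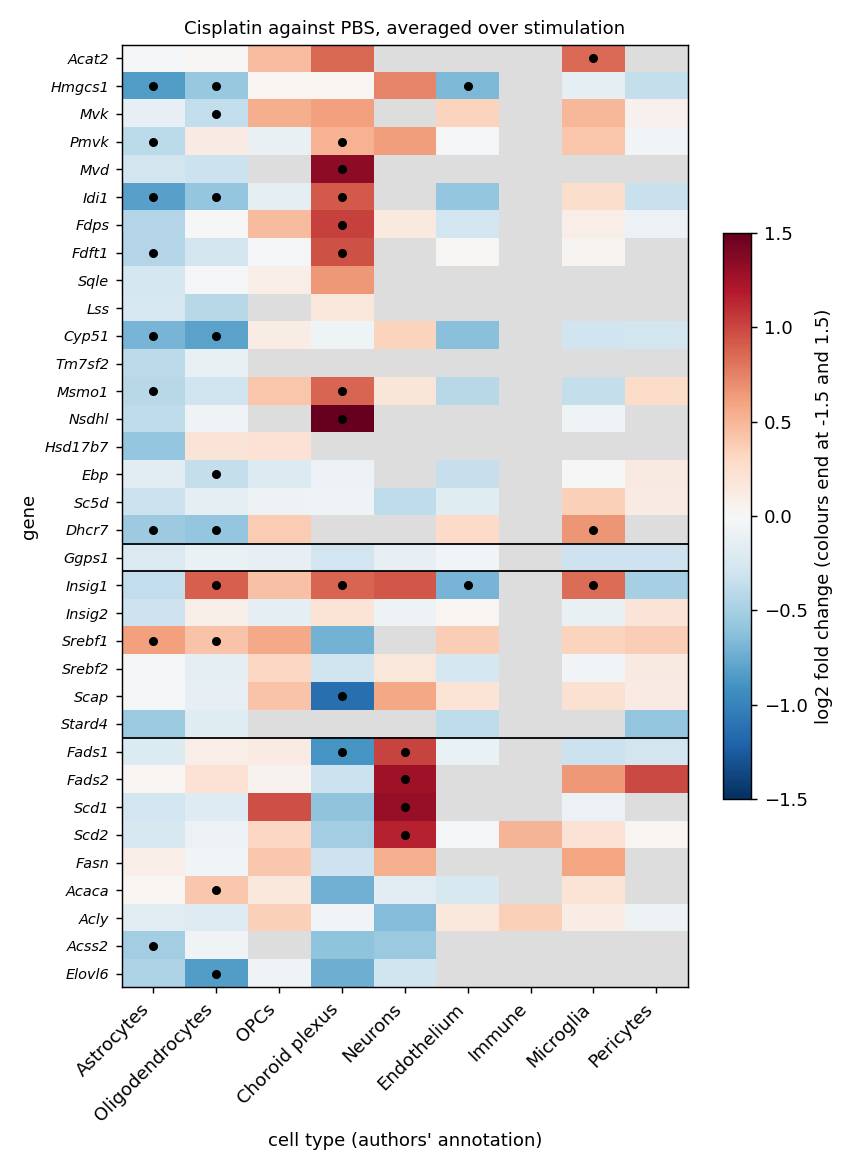
Log2 fold change of cisplatin against PBS, averaged over stimulation, for each gene (rows, grouped by role) in 9 cell types (columns); dots mark an edgeR adjusted p under 0.05 and grey marks genes not tested. Astrocyte sterol enzymes are all below 0 (median −0.40), while choroid plexus ones have a median of 0.65.

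The drug's effect was compared between cell types within libraries, with limma on the difference of log2 CPM between astrocytes and each of 5 other types over all genes tested in both. This gave 15 calls, for 13 members, and between 2 and 11 calls when any 1 library was left out. Each difference is astrocytes minus the other type. Against oligodendrocytes, Insig1 differed by −1.29 ± 0.20 (limma adjusted p = 0.000463), a call that held under all 18 other settings, in a comparison where 3.68% of genes were called. Against microglia, Hmgcs1 differed by −0.70 ± 0.13 (adjusted p = 0.00994) and Idi1 by −1.03 ± 0.23 (adjusted p = 0.0202), with 1.64% of genes called. Against choroid plexus, Nsdhl differed by −1.93 ± 0.26, Fdps by −1.34 ± 0.19 and Fdft1 by −1.47 ± 0.22 (adjusted p = 0.0385, 0.0385 and 0.0477), with 0.056% of genes called. With 1 library left out, the calls of Fdft1 and Fdps held in 0 and 1 of 12 cases. Against OPCs, Fdps differed by −0.87 ± 0.19 and Cyp51 by −0.81 ± 0.19 (adjusted p = 0.0279 and 0.0487), with 0.586% of genes called. Against endothelium no member was called by limma, with 1.1% of genes called.

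Few members were called for stimulation at 40 Hz. In PBS mice edgeR, DESeq2 and limma-voom each called 0 of 216 pairs, against 0.0% of all genes, with 9 pairs at an unadjusted p under 0.05. In cisplatin mice edgeR called 1 pair, 0.463% against 0.196% of all genes (0.991% in oligodendrocytes): Idi1 fell in oligodendrocytes by 0.68 ± 0.16 on the log2 scale (adjusted p = 0.0373), from 68.7 to 85.1 CPM without stimulation to 35.1 to 63.3 with it. In those cells 16 of 18 sterol enzymes were below 0, with a median of −0.29, and Hmgcs1 was at −0.64 ± 0.17, Msmo1 at −0.62 ± 0.16, Sqle at −0.62 ± 0.17 and Cyp51 at −0.70 ± 0.19 without a call (adjusted p = 0.0822, 0.0836, 0.0954 and 0.0967). The 3 libraries of each group did not overlap for 9 of 34 members, Hmgcs1, Mvd, Idi1, Fdft1, Cyp51, Msmo1 and Insig2 lower and Acat2 and Acaca higher with stimulation, against 11.3% of all genes. The interaction of drug and stimulation was called for 0 of 216 pairs by edgeR, DESeq2 and limma-voom, against 0.0245% of all genes by edgeR, with 16 pairs at an unadjusted p under 0.05; Cyp51 in oligodendrocytes was at −0.79 ± 0.25 (edgeR adjusted p = 0.372). The call for Idi1 was lost in 12 of 22 settings, among them the second batch alone (−0.39 ± 0.14, adjusted p = 0.293) and the fits without replicate 1 of either cisplatin group, replicate 3 of any group or PBS stim replicate 2.

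Other genes of the same pathways were read beside the members. Of 19 genes of sterol control, 104 pairs were tested and 2 rose and 7 fell in the averaged comparison (8.65%); of 26 genes of fatty acid and myelin lipid synthesis, 146 pairs were tested and 6 rose and 12 fell (12.3%). Both shares are near the 9.72% of all pairs. In oligodendrocytes Fabp5, a fatty acid carrier, fell by 1.15 ± 0.11 on the log2 scale, Ugt8a, which makes the myelin lipid galactosylceramide, fell by 0.84 ± 0.11, and Erlin2, which takes part in turnover of endoplasmic reticulum proteins, rose by 0.84 ± 0.12 (edgeR adjusted p = 4.56e-07, 1.72e-05 and 4.09e-05). In astrocytes the elongation enzymes Hsd17b12, Hacd3 and Elovl5 fell, by 0.42 ± 0.10, 0.33 ± 0.09 and 0.34 ± 0.10 (adjusted p = 0.0102, 0.0348 and 0.0431). In endothelium Ch25h, a cholesterol hydroxylase, rose by 2.16 ± 0.53 (adjusted p = 0.0158). With stimulation in cisplatin mice, Erlin2 was higher (0.82 ± 0.16) and Ugt8a lower (−0.77 ± 0.16) in oligodendrocytes (adjusted p = 0.0147 and 0.0161).

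Over all types, the count of 38 averaged calls ranged from 22 to 46 when 1 library was left out, being 22 without PBS nonstim replicate 3 or PBS stim replicate 2. It was 53 in the second batch alone and 12 with the ribosomal RNA-like share as a covariate, under which Hmgcs1, Idi1, Cyp51 and Fdft1 in astrocytes and Insig1, Elovl6, Cyp51, Acaca and Dhcr7 in oligodendrocytes kept their calls.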

How the data were processed

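Single-cell 3' libraries (10x Genomics v3.1 chemistry) were made from dissociated hippocampi, per the labels' protocols. Per the submitters' processing notes, Cell Ranger 5.0.0, Scanpy and mm10 were used; annotation release and counting settings are not given in the sources used here. From these the authors deposited raw UMI counts for 19834 cells with a library name and cell type per cell. The authors also deposited a doublet score per cell, from a caller the file headers do not name (at most 0.097, 0 cells marked, and no further call was made here), and a mean score per gene, of a scale not stated, that was not used. The median cell held 5581 UMIs from 2146 genes, and 4868 cells (24.54%) with over 10% mitochondrial UMIs were kept.

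Counts were summed per library and type with at least 10 cells (pericytes kept 2 PBS stim libraries), and 9 types were tested. edgeR 4.0.16 in R 4.3.3 fitted group and batch over all libraries with TMM and filterByExpr; limma 3.58.1 (prior count 2) compared types; DESeq2 1.42.0 and limma-voom were alternatives. Scripts were tested on simulated data. The members and lists were chosen with earlier results of these data known. Values are printed for at most 6 called members per type and comparison by smallest p, and for Hmgcs1, Idi1, Sqle, Insig1, Srebf1, Srebf2, Fasn, Scd1, Scd2 and Fads2; other members named with values were chosen after these were seen. Coordinates and shared 31-base words come from GENCODE transcripts of GRCm38. 3' counts cannot tell isoforms apart.

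Deviations of libraries from their group means correlated between PBS nonstim and PBS stim at 0.456, 0.285 and 0.278 for replicate numbers 1, 2 and 3. Only for number 1, which is the first batch, was each library the best match of the other. PBS stim replicate 2 and PBS nonstim replicate 3 correlated best with another number. The numbers were taken to pair PBS libraries, in part by the batch, only where the replicate number is a block. The main fits do not use this pairing. Other group pairs had at least 1 correlation under 0.1.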

Additional observations from a re-analysis of the deposited data

Results flagged for a closer look

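The effect of cisplatin, averaged over stimulation, differed between astrocytes and another type by limma's test of the difference in 15 cases over 13 members (2 to 11 cases with 1 library left out), each given as astrocytes minus the other type in log2 units. Against oligodendrocytes it was −1.29 for Insig1, −0.88 for Hsd17b7 and −0.54 for Pmvk. Against microglia it was −1.19 for Dhcr7, −1.16 for Insig1, −1.03 for Idi1, −0.97 for Acat2 and −0.70 for Hmgcs1. Against choroid plexus it was −1.93 for Nsdhl, −1.47 for Fdft1 and −1.34 for Fdps, 3 of only 4 genes called among 7142. Against OPCs it was −1.13 for Scd1, −0.87 for Fdps, −0.81 for Cyp51 and −0.55 for Scd2.

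The effect differed between batches, by edgeR's test of the difference (first minus second), for 3 members in astrocytes: Insig1 (−1.89), Mvd (−1.63) and Hsd17b7 (−1.60). In choroid plexus, where 2024 of 7952 genes differed likewise and the first batch held as few as 18 cells, it differed for 6 members with a count in every library: Scd2 (4.13), Fads1 (2.83), Srebf1 (2.69), Fads2 (2.30), Fdps (−1.53) and Mvk (−1.87).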

How the results depend on the processing

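Of 79 called values of single members, 28 kept their call whichever library was left out, 13 kept it in every setting, and 1 changed sign: Fads1 in choroid plexus, averaged, which was 0.0622 with the ribosomal RNA-like share as covariate. Without stimulation, 6 calls became 17 with no filter on low counts, 10 with at least 20 cells, 1 with no batch term, 32 in the second batch alone and 0 with the covariate, and 2 to 18 when 1 library was left out (18 without PBS nonstim replicate 1, 12 without Cisplatin nonstim replicate 1, 10 without PBS stim replicate 1, 3 without Cisplatin nonstim replicate 2, 2 without replicate 3 of either). Under stimulation, 19 became 29 with no filter, 7 with no batch term, 35 in the second batch, and 12 to 25 (12 without PBS stim replicate 2). Averaged, 38 became 21 with no batch term, 12 with the covariate, and 22 to 46 (22 without PBS nonstim replicate 3 or PBS stim replicate 2, 23 without PBS stim replicate 3, 24 without Cisplatin stim replicate 2). For stimulation in cisplatin mice, 1 became 4 by DESeq2, 7 with no filter, 2 in the second batch or with the covariate, 0 by limma-voom, with no batch term or without cells over 10% mitochondrial UMIs, and 0 to 5 (5 without Cisplatin nonstim replicate 2, 2 without Cisplatin stim replicate 3, 0 without PBS nonstim replicate 3, PBS stim replicate 2 or 3, or Cisplatin nonstim replicate 1 or 3). The interaction rose from 0 to 4 with no filter and was 0 to 1 (1 without Cisplatin nonstim replicate 3); stimulation in PBS mice gave 0 throughout the left-out libraries. Between types, 15 became 5 without cells over 10% mitochondrial UMIs, 1 with no batch term, 28 in the second batch, 7 at prior count 0.5, and 2 to 11 (2 without PBS nonstim replicate 1, and at most 9 without any other library except Cisplatin stim replicates 2 and 3). The cause was not tested.

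With the replicate number as a block in place of the batch, the pairing gave 0 calls for stimulation in cisplatin mice, 7 between types and 30 averaged; stimulation in PBS mice stayed at 0. Rare types and choroid plexus of the first batch limit depth: genes of low counts there can hide a change, and intervals cover the spread between 3 libraries a group.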
